A study of Mus musculus with 12 samples.

Results

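The integrin subunit genes described here are 10 genes taken by symbol, the alpha chains Itga4, Itga5, Itga6, Itgal, Itgam and Itgav and the beta chains Itgb1, Itgb2, Itgb3 and Itgb7, out of 41255 genes with mRNA values and 10080 genes with footprint values. All 10 are listed in both tables. The samples were clones of Ba/F3, a mouse lymphoid cell line that grows in interleukin 3, each with 1 mRNA library and 1 library of ribosome-protected mRNA fragments (RPF), which makes 12 libraries. In all clones a retroviral vector supplied human RPL10 and an shRNA knocked down the mouse's own Rpl10, and the cultures were grown from single-cell colonies chosen for a knockdown of at least 90%. Clones 11, 13 and 35 carried the R98S mutant form of RPL10, and clones 28, 29 and 36 carried the WT form. All cells received 100 µg/ml cycloheximide, which holds ribosomes in place, for 5 min before harvest. Each clone is 1 cell line, so the spread given here is that between clones.

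Integrins are heterodimers of 1 alpha and 1 beta chain that anchor cells to the extracellular matrix and to other cells. Chains pair in the endoplasmic reticulum, an unpaired chain is largely kept from the surface, and talin and kindlin bind the beta tail to switch the dimer into its high-affinity state. In leukocytes, alpha4 beta1 binds VCAM-1 and fibronectin, alpha4 beta7 binds MAdCAM-1 on gut vessels, alphaL beta2 (LFA-1) binds ICAMs, alphaM beta2 (Mac-1) marks myeloid cells, and the alpha5 beta1 and alphaV beta3 dimers bind fibronectin and vitronectin.

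Promoter sequences are shown for Itgb1 and Itgb7, the members that fell in R98S clones in the tests described further on, because a reader may want to compare the regions upstream of these genes. Both are from RefSeq on build mm10, 250 bases ending just before the RefSeq start site, read 5′ to 3′ on the gene's strand. Itgb1 is the stretch at chr8:128685404-128685653 on the plus strand, and Itgb7 is the stretch at chr15:102231936-102232185 on the minus strand. Capitals mark every match, on either strand, to any of 6 motifs searched. These were the Ikaros family core, spelled GGGAA; the RUNX core, spelled TGTGGT; the GATA motif, spelled GATAAG; the AP-1 motif, spelled TGANTCA; the Sp1 GC box, spelled GGGCGG; and the PU.1 core, spelled GAGGAA. No motif contains another, but matches may overlap.
Itgb1: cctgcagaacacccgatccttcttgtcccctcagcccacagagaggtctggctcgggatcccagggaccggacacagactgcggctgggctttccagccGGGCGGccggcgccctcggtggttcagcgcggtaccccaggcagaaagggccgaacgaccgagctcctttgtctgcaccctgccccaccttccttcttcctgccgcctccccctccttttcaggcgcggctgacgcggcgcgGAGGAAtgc
Itgb7: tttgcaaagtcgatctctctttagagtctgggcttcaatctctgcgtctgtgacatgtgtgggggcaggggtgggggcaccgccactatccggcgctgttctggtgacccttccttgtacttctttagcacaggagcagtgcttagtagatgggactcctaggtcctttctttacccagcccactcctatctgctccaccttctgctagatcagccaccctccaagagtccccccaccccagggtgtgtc
The Itgb1 stretch holds 1 GC box and 1 PU.1 core, and the Itgb7 stretch holds none of the 6 motifs. Among 32817 promoters of the same length, 32.7% hold the GC box, 23.3% the PU.1 core, 56.2% the Ikaros family core, 14.0% the RUNX core, 6.75% the AP-1 motif and 6.55% the GATA motif. Their GC content was 68% for Itgb1 and 56% for Itgb7. Promoter sequence was matched for 6 of the 10 members, namely Itga4, Itga5, Itgam, Itgav, Itgb1 and Itgb7. A match is a run of letters and says nothing of binding.

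The members lie on 6 autosomes of mm10. On chromosome 2 are Itga6 (chr2:71745616-71858416), Itga4 (chr2:79255426-79333123) and Itgav (chr2:83724397-83806916). Itgal (chr7:127296260-127335138) and Itgam (chr7:128062640-128118491) share chromosome 7. Itgb7 (chr15:102215995-102231944) and Itga5 (chr15:103344286-103366763), both on the minus strand, are separated by 1112341 bases on chromosome 15. Itgb1 is at chr8:128685654-128733200, Itgb2 at chr10:77530252-77565708 and Itgb3 at chr11:104608000-104670476. The locus of the opposite-strand gene Cerkl shares 2581 bases with that of Itga4, and the Cerkl mRNA was between 34.9 and 106 normalized counts. Whether mRNA reads were counted by strand is not stated in the sources used here, so Itga4 and Cerkl reads may be partly shared. The same-strand protein-coding gene Gm49368, which has no mRNA values here, shares 55809 bases with the Itgam locus. Its bearing on the Itgam counts was not tested.

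The mRNA libraries held between 6617457 and 23136595 counted reads, the lowest being that of WT clone 28, where a single read equals 2.69 normalized counts (0.784 to 0.860 elsewhere). The footprint libraries held between 3477723 and 10883086 reads. Mouse Rpl10, to which reads of the human transgene may also align, was between 1449 and 2905 normalized mRNA counts in R98S clones and between 2230.2 and 4501 in WT clones, and its groups overlapped. Of 12 pro-B cell markers only Cd79a and Cd79b had a mean mRNA of at least 10, while Pax5 and Rag1 were at 0 in each library. All 6 pan-leukocyte genes passed that mean, as did 6 of 10 mast cell and basophil genes, 5 of 8 megakaryocyte and erythroid genes, 2 of 7 myeloid genes, 1 of 6 T cell genes and 1 of 6 stromal and endothelial genes.

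The first question was how much of each subunit the cells make. Footprints per kilobase of counted coding sequence put the beta chains first. Itgb2, the leukocyte beta chain, had a mean of 1785 normalized footprints per kilobase over the 6 clones, and Itgb1 had 1772, an order that held in only 3 of 6 clones. Itgb3 followed with 610.1 and Itgb7 with 548, and the values of this pair overlapped as well. Of the alpha chains, Itgal had 429.7, Itga5 had 299, Itga4 had 158 and Itgav had 109.5 footprints per kilobase. Each of these 4 overlapped in its range with its neighbour in the order, although Itga5 was above Itga4 in each of the 6 clones. Itga6, the laminin-binding alpha chain, was far lower at 4.30, and Itgam was lowest at 1.13 footprints per kilobase. The ranges of Itgb1 and Itgb3, and those of Itgav and Itga6, did not overlap. Outside the members, the alpha chain Itga2b had a mean of 2010 footprints per kilobase, above that of Itgb2. The beta chain Itgb4, also outside them, had 252, below Itga5.

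In mRNA per kilobase of exon, the order of the members began with Itgb1 at 1771, Itgb2 at 903, Itgb3 at 419 and Itgb7 at 349. Itgb1 was above Itgb2 in 6 of 6 clones. Itga5 at 324 and Itgal at 321 did not separate. Itga4 had 131, Itgav 60, Itga6 6.14 and Itgam 0.445 normalized mRNA counts per kilobase. Itgb7 stood at rank 3 of the 10 members in WT clones and at rank 6 in R98S clones, in footprints and in mRNA alike.

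**Figure D1:**
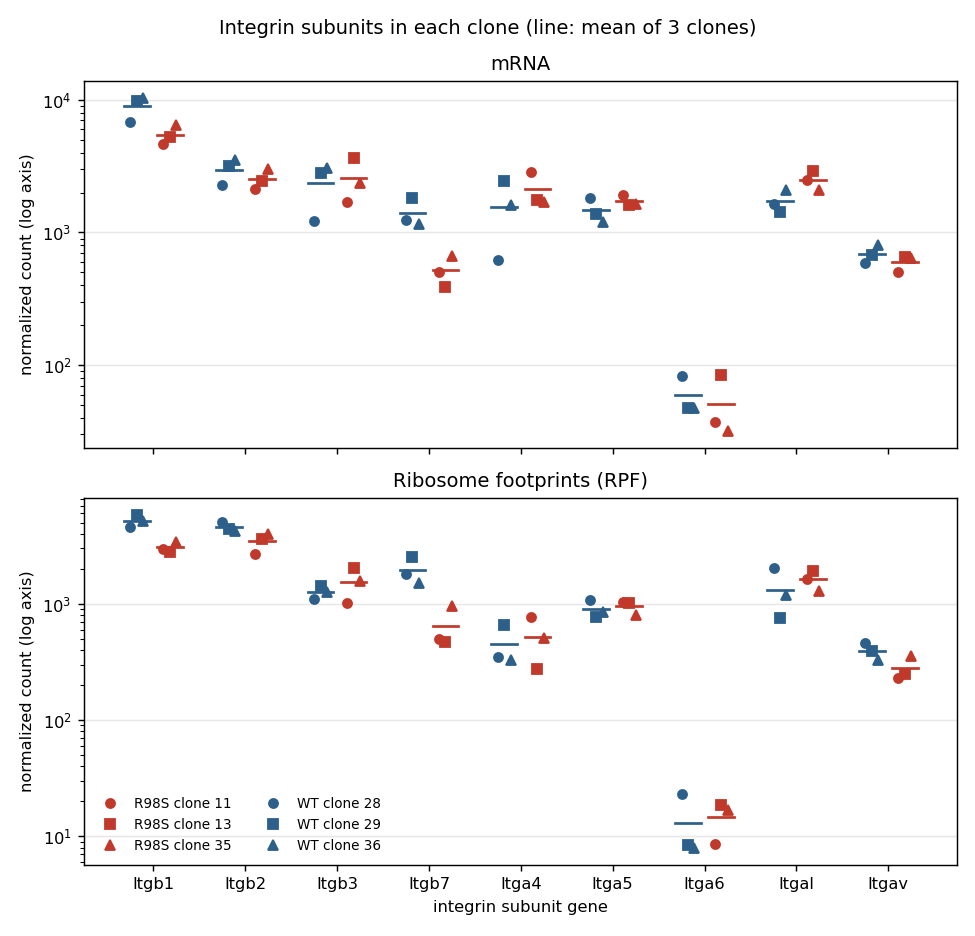
Normalized counts (log axis) of 9 integrin subunits in mRNA and in footprints, 1 point per clone, with the R98S clones in red, the WT clones in blue and the mean of 3 clones as a line. The Itgb7 and Itgb1 points of the R98S clones lie below all WT points in both panels, whereas those of most other subunits are mixed; Itgam, with at most 15.3 normalized counts, is not drawn.

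The next question was which subunits differed between R98S and WT clones, and in which of the assays. Itgb7 was lower in R98S clones in mRNA and in footprints, and Itgb1 was lower in footprints and, short of the threshold, in mRNA. Among the 10 members, no alpha chain passed the threshold in any assay, and no subunit was called higher. Genes that averaged 10 normalized counts or more were tested with limma on log2(normalized count + 1), on which scale the change of low genes is understated, and a Benjamini-Hochberg adjusted p under 0.1 counted as a change. In mRNA 9 members were tested, and 1 was lower and 0 were higher, where 3.91% of the 11344 tested genes were lower and 3.03% higher. In footprints 2 of 9 were lower and 0 higher, beside 4.62% and 3.13% of 9580 genes. At an unadjusted p under 0.05, limma had 1 member higher (Itgal) and 2 lower (Itgb1 and Itgb7) in mRNA, where 8.85% of all tested genes were higher and 9.10% lower. At the same unadjusted p, footprints had 0 members higher and 3 lower (Itgav, Itgb1 and Itgb7), beside 9.62% and 10.7% of all tested genes. DESeq2 and edgeR on the recovered reads called 0 members higher in either assay. The genotypes did not overlap for 2 of the 9 tested members in mRNA and 3 of 9 in footprints, against 23.5% and 25.3% of all tested genes. With 3 clones against 3, the smallest two-sided p of an exact permutation test is 0.1, and members without overlap reach it. In cultures such as these, less RNA per cell and fewer cells that express a gene cannot be told apart.

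Itgb7, the beta chain that pairs with alpha4 and alphaE in lymphocytes, had 502, 389.8 and 669 normalized mRNA counts in R98S clones 11, 13 and 35 and 1249, 1819 and 1165 in WT clones 28, 29 and 36. All R98S clones were below all WT clones. The log2 fold change was -1.44 (standard error 0.25, adjusted p = 0.0137, limma), a fall of 2.72-fold. Its footprints were 499, 471 and 955 in R98S clones and 1805, 2526 and 1505 in WT clones, again without overlap. R98S clone 35 had the highest level of the mutant clones in both assays. The footprint log2 fold change was -1.64 (standard error 0.28, adjusted p = 0.0130, limma), with a 95% interval from -2.27 to -1.02. Itgb7 stayed past the threshold in each fit that left out a clone, with an adjusted p from 0.0148 to 0.0643 in mRNA and from 0.00194 to 0.0712 in footprints. Beside this, the summed mRNA of 7 myeloid markers was 2.38 to 27.5 normalized counts in R98S clones and 32.2 to 467 in WT clones, of which 429.7 in WT clone 28 came from Cd14, while Csf3r was at 0 in each library. The sums of 4 other marker lists did not overlap between genotypes either. Pro-B cell markers came to 1356 to 1674 normalized mRNA counts in R98S clones and 901 to 1163 in WT clones, T cell markers to 77.8 to 99.7 against 47.0 to 63.5, and pan-leukocyte genes to 102259 to 124183 against 49986 to 96862. Megakaryocyte and erythroid markers, most of whose sum was Itga2b, went the other way, with 7729 to 8805 against 8978 to 11883. The sums of mast cell and basophil markers and of stromal and endothelial markers overlapped. Within the mast cell and basophil list, Gata2 was lower in R98S clones, at 11145 to 15300 against 20183 to 26448 normalized mRNA counts. Cpa3 was higher, at 253 to 787 against 13.4 to 174, while Mcpt8, Ms4a2, Hdc and Cma1 each overlapped. Most of the pan-leukocyte sum was Csf2rb and Csf2rb2, with mean mRNA of 46671 and 37003, and most of the T cell sum was Lck. The other pan-leukocyte genes each overlapped between genotypes, namely Il3ra, Spi1, Runx1 and Ptprc. Ptprc had 3802 to 5001 normalized mRNA counts in R98S clones and 4871 to 11845 in WT clones. The part of any of these genes in the Itgb7 difference was not tested.

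Itgb1, the common beta chain of the receptors for fibronectin, VCAM-1, collagen and laminin, was the most abundant member in mRNA. Normalized mRNA counts of Itgb1 were 4676, 5234 and 6478 in R98S clones 11, 13 and 35 and 6759, 9859 and 10366 in WT clones 28, 29 and 36. The highest R98S clone lay just under the lowest WT clone, which was clone 28. The mRNA log2 fold change was -0.71 (standard error 0.21, adjusted p = 0.108, limma), short of the threshold. Its footprints were 2966, 2810.2 and 3437 in R98S clones and 4606, 5848 and 5176 in WT clones. These groups did not overlap, and the footprint log2 fold change was -0.76 (standard error 0.18, adjusted p = 0.0428, limma), a fall of 1.69-fold. That call was lost without R98S clone 11 (adjusted p = 0.162), without R98S clone 13 (0.191) and without WT clone 36 (0.113), while the log2 fold change stayed between -0.85 and -0.67 in limma. Without WT clone 28, whose mRNA library was the shallowest, the mRNA change passed the threshold (log2 fold change -0.90, adjusted p = 0.0261, limma). Genes of chromosome 8, which carries Itgb1, had a median R98S minus WT difference of -0.21 in mRNA (603 genes) and -0.19 in footprints (526 genes). With each chromosome's median removed, Itgb1 was at -0.57 in footprints (adjusted p = 0.115, limma) and at -0.50 in mRNA (adjusted p = 0.268, limma), so neither passed. On chromosome 15, which holds Itgb7, the same medians were -0.03 and -0.02.

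Itgb2, the beta chain of LFA-1 and Mac-1, had footprint counts of 2685, 3647 and 4022 in R98S clones and 5105, 4391 and 4273 in WT clones. The groups did not overlap, but the log2 fold change of -0.43 (standard error 0.20) did not pass (adjusted p = 0.258, limma). Its mRNA overlapped, with 2112, 2445 and 3033 normalized counts against 2279.9, 3152 and 3512 and a log2 fold change of -0.23 (95% interval -0.71 to 0.25). Itgb3, the beta chain of the vitronectin receptor and of the platelet fibrinogen receptor, had mRNA of 1699, 3663 and 2364 in R98S clones and 1229.9, 2804 and 3084 in WT clones. Its footprints were 1018, 2049 and 1560.0 against 1110.1, 1427 and 1269. In footprints R98S clone 11 was below and the other R98S clones above all WT clones. In mRNA the groups overlapped, with WT clone 28 lowest and R98S clone 13 highest. The log2 fold changes were 0.16 in mRNA (95% interval -0.68 to 0.99) and 0.23 in footprints (95% interval -0.31 to 0.77).

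Itga4, which pairs with the beta1 and beta7 chains, varied more between clones of 1 genotype than the other tested subunits in mRNA. Normalized mRNA counts of Itga4 were 2879, 1762 and 1694 in R98S clones and 615, 2459 and 1610.4 in WT clones, the low value being that of WT clone 28. Its within-genotype SD was 0.784 on the log2 scale, larger than that of 93.9% of tested genes. Footprints of Itga4 were 765, 275 and 505 in R98S clones and 349, 663 and 331 in WT clones, so that clone 11 and clone 29 were high and the genotypes were mixed. The log2 fold changes were 0.61 in mRNA (95% interval -0.38 to 1.59) and 0.16 in footprints (-0.64 to 0.96), too wide to show a change of either sign.

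Itgal, the alpha chain of LFA-1, had 2489, 2893 and 2096 normalized mRNA counts in R98S clones and 1635, 1427 and 2099 in WT clones. R98S clone 35 and WT clone 36 were level, and the other R98S clones were above all WT clones. The log2 fold change was 0.54 (standard error 0.20, adjusted p = 0.187, limma). Footprints of Itgal were 1649, 1927 and 1293 against 2027, 749.6 and 1195, and WT clone 28 was the highest of all, with a log2 fold change of 0.39 (adjusted p = 0.517, limma). Genes of chromosome 7, which carries Itgal, had a median R98S minus WT difference of 0.18 in mRNA and 0.19 in footprints. With each chromosome's median removed, Itgal was at 0.36 in mRNA (adjusted p = 0.424, limma) and 0.20 in footprints (adjusted p = 0.775, limma).

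Itga5 is the fibronectin receptor's alpha chain. Its mRNA lay between 1612 and 1908 in R98S clones and between 1208 and 1831 in WT clones, and its footprints between 794 and 1038 against 778 and 1082. The footprint log2 fold change was 0.08 (95% interval -0.35 to 0.51). Itgav, the vitronectin receptor's alpha chain, had footprints of 229.7, 251 and 359 in R98S clones and 461, 389 and 329 in WT clones, which overlap through R98S clone 35 and WT clone 36. Its footprint log2 fold change was -0.50 (standard error 0.22, adjusted p = 0.239, limma) and passed only without R98S clone 35 (adjusted p = 0.0881). Itgav mRNA was 502, 654 and 641 against 588, 680.5 and 802, with a log2 fold change of -0.20 (95% interval -0.66 to 0.25).

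Itga6 and Itgam were near the lower end of what these libraries measure. Itga6 mRNA stood at 37.3, 84.4 and 31.8 in R98S clones and 83.2, 47.8 and 47.8 in WT clones, and its footprints rested on 6 to 24 reads per library. The 95% interval of its footprint log2 fold change ran from -0.93 to 1.41. Itgam was under the mean of 10 in both assays and was not tested. It had 0, 2 and 0 mRNA reads in R98S clones 11, 13 and 35 and 2, 3 and 5 in WT clones, and 3, 1 and 1 footprint reads against 16, 1 and 2. The footprints of WT clone 28 stood above the rest, on 16 reads. Cd14 mRNA was high in the same clone, and a link with Itgam was not tested.

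**Figure D2:**
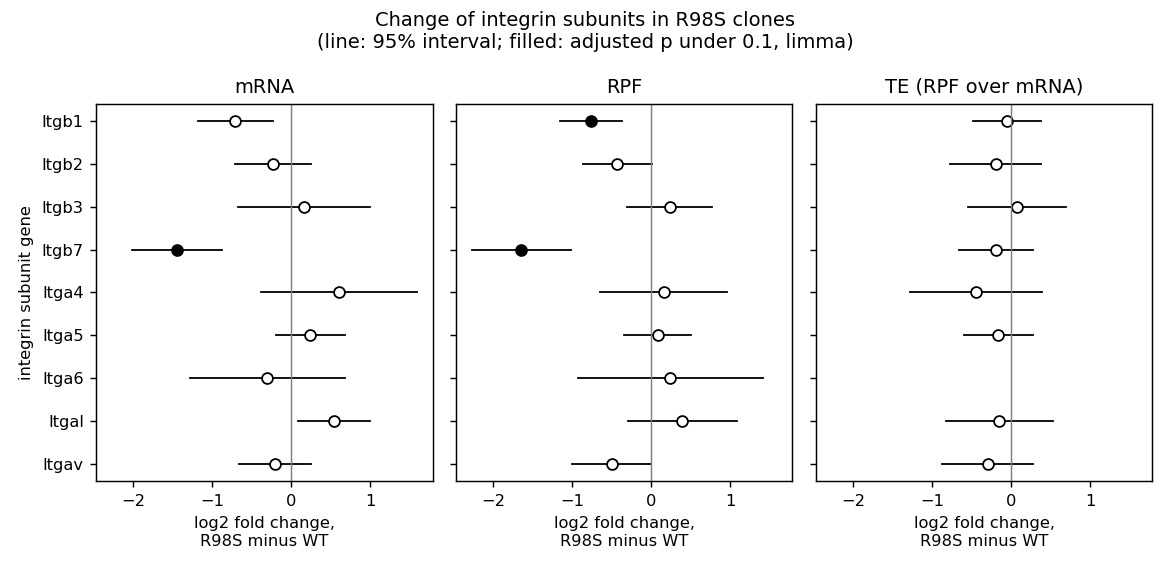
Log2 fold change (R98S minus WT) of the tested integrin subunits in mRNA, footprints and translation efficiency, with 95% intervals as lines and filled circles where the adjusted p was under 0.1 in limma. Itgb7 is filled in mRNA and footprints, Itgb1 in footprints alone, and no circle is filled in translation efficiency.

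Translation efficiency (TE), here footprints over mRNA on the log2 scale, clone by clone, was compared next to see whether ribosome loading moved apart from mRNA. Of the 8 members that reached 10 normalized counts in every one of the 12 libraries, 0 were called by limma, beside 0.0221% of 9043 genes tested, and 0 by DESeq2 or edgeR. By limma 0 members had an unadjusted p under 0.05, beside 7.85% of the genes tested. Adjusted p-values lay between 0.733 and 0.950. The Itgb7 ratio of footprints to mRNA was 0.994, 1.21 and 1.43 in R98S clones 11, 13 and 35 and 1.45, 1.39 and 1.29 in WT clones, and its log2 change of -0.20 had a 95% interval from -0.67 to 0.27. For Itgb1 the ratios were 0.634, 0.537 and 0.531 against 0.681, 0.593 and 0.499, with a log2 change of -0.05 (95% interval -0.49 to 0.38). The widest interval was that of Itga4, from -1.28 to 0.39. The ratio was highest in WT clone 28 for 7 of the 8 members, for example 2.24 for Itgb2 against 1.22 to 1.49 in the other clones and 1.24 for Itgal against 0.525 to 0.666. The median ratio over all 9043 genes was 0.324 in WT clone 28 and 0.313 to 0.323 in the others. Deviations from the genotype means correlated least between mRNA and footprints in WT clone 28, at 0.218, and WT clone 36, at 0.311. Since mRNA and footprint tables were scaled separately, the ratio has no absolute meaning and only its differences can be read.

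Because an alpha chain needs a beta partner, the balance of known pairs was compared within each clone as the ratio of their footprint counts, which does not depend on library scaling. The Itga4 to Itgb7 ratio was 1.53, 0.585 and 0.529 in R98S clones 11, 13 and 35 and 0.194, 0.263 and 0.220 in WT clones. All R98S clones were above all WT clones, by 1.80 on the log2 scale (exact permutation p = 0.1, adjusted 0.28 over 7 pairs). Most of this difference was the Itgb7 fall already given, since the footprint log2 fold change was -1.64 for Itgb7 and 0.16 for Itga4. The ratio is thus not a separate result from that fall. In mRNA the same ratio was 5.73, 4.51 and 2.53 against 0.493, 1.35 and 1.38, a log2 difference of 2.05. The Itgav to Itgb3 footprint ratio went the other way, with 0.226, 0.123 and 0.231 in R98S clones and 0.416, 0.273 and 0.260 in WT clones, a log2 difference of -0.73 (exact permutation p = 0.1, adjusted 0.28), while in mRNA the genotypes overlapped for this pair. With each clone left out in turn, the footprint difference lay between 1.31 and 2.08 for Itga4 over Itgb7 and between -0.89 and -0.44 for Itgav over Itgb3, the latter nearest to 0 without R98S clone 13.

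The other 5 pairs overlapped between genotypes in footprints. In mRNA, Itga4 over Itgb1 and Itgav over Itgb1 did not overlap, with log2 differences of 1.31 and 0.50. Each had an exact permutation p of 0.1, adjusted 0.233. The footprint log2 difference was 0.92 for Itga4 over Itgb1, 0.84 for Itga5 over Itgb1, 1.00 for Itga6 over Itgb1, 0.26 for Itgav over Itgb1 and 0.82 for Itgal over Itgb2, with adjusted exact permutation p-values of 0.28 or 0.3. Leaving out 1 clone moved 4 of these differences by over 1.5 times: Itga4 over Itgb1 to 0.55 without R98S clone 11, Itga6 over Itgb1 to 1.55 without WT clone 28, Itgal over Itgb2 to 0.50 without WT clone 29, and Itgav over Itgb1 to 0.15 without R98S clone 35, 0.17 without WT clone 29, 0.14 without WT clone 36 and 0.47 without WT clone 28. Several of these pairs share a chain, so they are not separate observations, and no pair could pass an adjusted 0.1 at this number of clones. The footprints per kilobase of Itga4, Itga5, Itga6 and Itgav together, divided by those of Itgb1, came to 0.523, 0.423 and 0.370 in R98S clones and 0.315, 0.239 and 0.222 in WT clones. That sum over Itgb1 was higher in each R98S clone than in any WT clone (exact permutation p = 0.1). For Itgb7, the sum of Itga4 and Itgae over the beta chain was 1.21, 0.478 and 0.418 against 0.153, 0.208 and 0.175, also without overlap (exact permutation p = 0.1). The lower footprints of Itgb1 and Itgb7 given above enter these sums as divisors, so the sums are not separate results from those falls. For Itgb3, the sum of Itgav and Itga2b was lower in each R98S clone, with 2.78, 1.99 and 2.82 against 5.18, 3.32 and 5.91 (exact permutation p = 0.1). In mRNA this Itgb3 ratio overlapped, with 4.86, 2.40 and 4.03 against 10.2, 3.44 and 4.07 (exact permutation p = 0.5). The sums over Itgb1 and over Itgb7 did not overlap in mRNA either. For Itgb2, the sum of Itgal and Itgam was 0.404, 0.347 and 0.212 against 0.263, 0.112 and 0.184, and the genotypes overlapped (exact permutation p = 0.2).

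**Figure D3:**
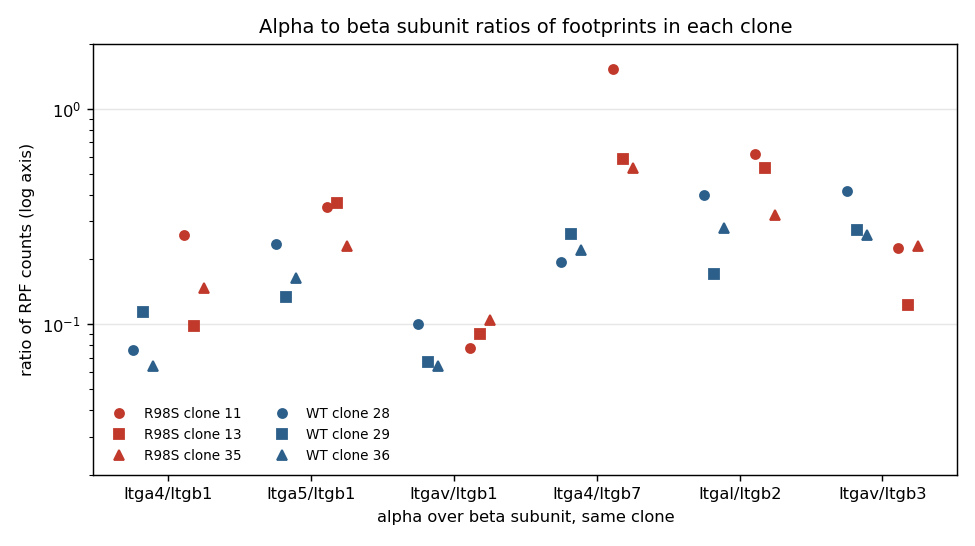
Ratio of alpha to beta subunit footprint counts (log axis) within each clone for 6 of the 7 pairs, with R98S clones in red and WT clones in blue. The genotypes are apart for Itga4/Itgb7, at 0.529 to 1.53 against 0.194 to 0.263, and, in the opposite order, for Itgav/Itgb3.

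The makeup of the beta chain pool was described as the share of each chain in the summed footprints per kilobase of Itgb1, Itgb2, Itgb3, Itgb4 and Itgb7. Itgb7 took 6.26%, 4.64% and 8.91% of the pool in R98S clones 11, 13 and 35 and 13.4%, 16.8% and 11.6% in WT clones. Itgb3 took 13.1%, 20.7% and 14.9% against 8.44%, 9.74% and 9.98%, so its share was higher in each R98S clone although its level did not pass the test. Itgb1 and Itgb2 held the largest shares in both genotypes, 28.0% to 37.6% and 35.3% to 39.3% in R98S clones against 34.5% to 40.2% and 30.6% to 39.7% in WT clones. These footprint ranges overlapped. In mRNA they did not, with Itgb1 at 41.9% to 47.2% in R98S clones against 50.5% to 52.9%, and Itgb2 at 26.2% to 29.5% against 21.6% to 23.9%. The footprint share of Itgb4 was 4.47% to 9.03% in R98S clones and 3.44% to 3.97% in WT clones, without overlap, while its mRNA share overlapped. A share rises when another falls, so the shares are not independent of each other, and each that did not overlap had an exact permutation p of 0.1.

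**Figure D4:**
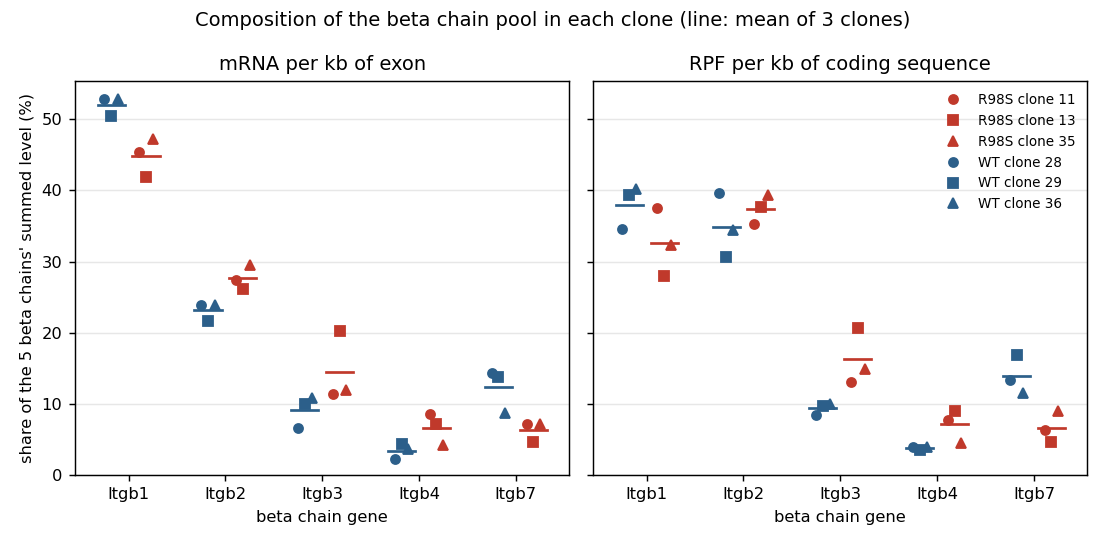
Share (%) of 5 beta chains in their summed level per kilobase in mRNA and in footprints, 1 point per clone, with R98S clones in red, WT clones in blue and the mean of 3 clones as a line. Itgb7 has a mean footprint share of 6.60% in R98S clones and 13.9% in WT clones, and Itgb3 of 16.2% and 9.39%.

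Of the 16 integrin subunits outside the 10 members, 6 had a mean mRNA of at least 10 and the other 10 did not exceed 5.77 normalized counts in any library. Itga2b, the alpha chain of the platelet fibrinogen receptor and partner of beta3, was the most abundant integrin alpha chain, at 7381, 7808 and 8482 normalized mRNA counts in R98S clones and 11249, 8559.7 and 11189 in WT clones. Its groups did not overlap, and neither mRNA (log2 fold change -0.38, adjusted p = 0.291, limma) nor footprints (-0.68, adjusted p = 0.144) passed. Itgb4, the partner of alpha6, lay between 497 and 1533 mRNA counts with overlap. Itga10 and Itgae, the partner of beta7 in mucosal lymphocytes, had means of 30.9 and 83.4 and overlapped too.

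Itga2, the alpha chain of the collagen receptor alpha2 beta1, rose in footprints, with 84.0, 88.0 and 53.7 in R98S clones and 1.91, 7.29 and 35.6 in WT clones (log2 fold change 2.96, standard error 0.73, adjusted p = 0.0501, limma). Its mRNA was 105, 221 and 159 against 0, 20.6 and 109, where WT clone 36 fell within the R98S range and the test did not pass (adjusted p = 0.193, limma). Itga7, a laminin-binding alpha chain, rose in mRNA, with 69.9, 52.4 and 70.5 against 8.06, 4.12 and 29.0 (log2 fold change 2.53, adjusted p = 0.0533, limma), and had footprints of 19.7, 18.4 and 15.1 against 1.91, 1.04 and 14.5 (adjusted p = 0.144, limma). Both calls, Itga2 in footprints and Itga7 in mRNA, held in 2 of the 6 fits that left out 1 clone.

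Genes that act with integrins were grouped into 7 lists of 147 genes in all, among them the 16 subunits above. In mRNA 99 were tested, of which 6 rose and 11 fell, or 6.06% and 11.1%, beside 3.03% and 3.91% of all tested genes. In footprints 93 were tested, of which 1 rose and 11 fell, or 1.08% and 11.8%, beside 3.13% and 4.62% of all tested genes. The lists were chosen with earlier results of these data known. These shares therefore cannot show that integrin partners changed more often than other genes. The count lower in mRNA was 2 without R98S clone 11 and 3 without R98S clone 13. The median log2 fold change over these genes was -0.08 in mRNA and -0.04 in footprints, against 0.01 in either assay over all tested genes.

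Activators, which carry the signal from inside the cell to the beta tail, had 15 genes tested in mRNA, of which 3 fell and 0 rose, and 14 in footprints, of which 2 fell and 0 rose. Rasgrp2 (CalDAG-GEFI), the exchange factor that loads Rap1 with GTP, had mRNA of 368, 398 and 524 in R98S clones and 924, 793 and 737 in WT clones. Its footprints were 208, 209.5 and 233 against 479, 436 and 394, with log2 fold changes of -0.94 (adjusted p = 0.0366, limma) and -1.0 (adjusted p = 0.0154). Both assays separated the genotypes by a gap wider than either group. Rap1b, the small GTPase it acts on, fell in mRNA from 6405, 7827 and 7256 in WT clones to 3417, 3783 and 4984 in R98S clones, with a log2 change of -0.83 (adjusted p = 0.0402, limma). Its footprints had a log2 fold change of -0.59 (adjusted p = 0.120, limma). Rapgef3 (EPAC1), a cyclic AMP-driven exchange factor for Rap1, fell in mRNA by 1.36 on the log2 scale (adjusted p = 0.0416, limma), at 31.8 to 43.0 against 81.5 to 115 normalized counts. Fyb (ADAP), an adaptor on the way from receptors to integrin activation, fell in footprints, with 978, 728 and 1048 against 2328, 2221 and 1732 (log2 fold change -1.19, adjusted p = 0.0125, limma). Its mRNA was 2216, 1906 and 2232 against 2103, 4854 and 4272, so WT clone 28 was level with the R98S clones there (adjusted p = 0.208, limma).

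Among inhibitors 1 of 10 tested genes fell in each assay and 0 rose. It was Flna, the actin crosslinker filamin A that competes with talin for beta tails, with mRNA of 6388, 6311 and 7659.8 in R98S clones and 14058, 8833 and 23639 in WT clones. Its footprints were 6202, 5309 and 5187 against 17514, 6274 and 15291. The genotypes were apart in both assays although WT clone 29 lay close to the R98S clones, and the log2 fold changes were -1.08 (adjusted p = 0.0951, limma) and -1.10 (adjusted p = 0.0959).

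Adhesion signalling genes, which act at the cytoplasmic side of engaged integrins, had 27 tested in mRNA, with 3 lower and 2 higher, and 26 in footprints, with 4 lower and 0 higher. Tns1 (tensin 1), which links beta tails to actin, fell from 814, 753 and 2035 normalized mRNA counts in WT clones to 206, 209.7 and 239.9 in R98S clones, with a log2 change of -2.30 (adjusted p = 0.00679, limma). Its footprints fell by 1.64 (adjusted p = 0.0404). Parvb (beta-parvin), of the complex with integrin-linked kinase, had footprints of 7.98, 19.3 and 8.40 against 138, 86.4 and 64.6, a log2 fold change of -2.95 (adjusted p = 0.00526, limma), while its mRNA fell by 1.39 (adjusted p = 0.0643). Zyx (zyxin), a focal adhesion protein that recruits actin regulators, was at 2229.9, 1897 and 3165 in R98S clones and 4023, 5557 and 7143 in WT clones in mRNA. It fell by 1.19 in mRNA (adjusted p = 0.0339, limma) and by 0.78 in footprints (adjusted p = 0.0379). The exchange factors beta-PIX and alpha-PIX were called in opposite directions, but not in the same assay. Arhgef7 (beta-PIX) fell in footprints, with 415, 484 and 299 against 994, 514 and 758 (log2 fold change -0.90, adjusted p = 0.0876, limma). Its mRNA change of -0.67 did not pass (adjusted p = 0.146, limma). Arhgef6 (alpha-PIX) rose in mRNA, with 2235, 2827 and 2414 against 991, 1774 and 1583 (log2 fold change 0.82, adjusted p = 0.0936, limma), but its footprints overlapped (0.20, adjusted p = 0.596). Fyn, a Src-family kinase, rose in mRNA from 379, 434 and 407 in WT clones to 737, 729.7 and 646 in R98S clones, with a log2 change of 0.79 (adjusted p = 0.0432, limma), and its footprint change was 0.81 (adjusted p = 0.119).

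Membrane proteins that associate with integrins in cis had 14 tested in mRNA, with 3 lower and 1 higher, and 12 in footprints, with 2 lower and 0 higher. Cd47, the integrin-associated protein, was at 5769.7, 5029 and 6631 in R98S clones and 11359, 9385 and 8593 in WT clones in mRNA (log2 fold change -0.75, adjusted p = 0.0536, limma). Bsg (basigin, CD147) fell in mRNA by 0.76 (adjusted p = 0.0759, limma) and in footprints by 0.64 (adjusted p = 0.0703). Plaur, the urokinase receptor, fell in footprints from 250.3, 91.6 and 163 in WT clones to 45.7, 57 and 89.0 in R98S clones, with a log2 change of -1.32 (adjusted p = 0.0758, limma). Jam2, an adhesion molecule that binds alpha4 beta1, fell in mRNA by 1.66 (adjusted p = 0.0986, limma) at a low level of 7.37 to 18.9 against 27.2 to 46.2. The tetraspanin Cd82 was the member of this list that rose, with 929.6, 1029 and 833 mRNA counts against 588, 619 and 615 (log2 fold change 0.61, adjusted p = 0.0951, limma).

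Of the ligands, 11 were tested in mRNA, with 1 lower and 1 higher, and 9 in footprints, with 1 lower and 0 higher. Spp1, the secreted ligand osteopontin that alpha4, alpha5 and alphaV integrins bind, had 109, 195 and 675 normalized mRNA counts in R98S clones and 38951, 7419.8 and 17821 in WT clones. Its footprints were 89.9, 119.9 and 512 against 42849, 6762 and 14421. R98S clone 35 was the highest of the mutant clones and still far under WT clone 29, and the log2 fold changes were -6.15 (adjusted p = 0.0014, limma) and -6.50 (adjusted p = 0.000725). C3, the complement component whose fragment iC3b binds Mac-1, rose in mRNA from 448, 173 and 258 to 649, 1287 and 763 (log2 fold change 1.66, adjusted p = 0.0366, limma), with overlapping footprints (0.79, adjusted p = 0.321).

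For recycling and trafficking, 16 genes were tested in mRNA, with 1 higher and 0 lower, and 17 in footprints, with 1 lower and 0 higher. Snx31, a sorting nexin that binds beta tails in endosomes, had mRNA of 191, 191 and 205 against 83.2, 119.6 and 65.8 (log2 fold change 1.16, adjusted p = 0.0549, limma). Vps35, the core subunit of the retromer, had footprints of 1166, 1013 and 1222 in R98S clones and 1747, 2249.9 and 1573 in WT clones (log2 fold change -0.70, adjusted p = 0.0663, limma), while its mRNA overlapped. Leaving out single clones kept the call in 6 of 6 fits for Spp1 in both assays, for Tns1 in mRNA and for Rasgrp2, Fyb and Parvb in footprints. Each of the other calls in these lists was lost in at least 2 of the 6 fits, and Flna, Jam2 and Arhgef7 kept theirs in 1.

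**Figure D5:**
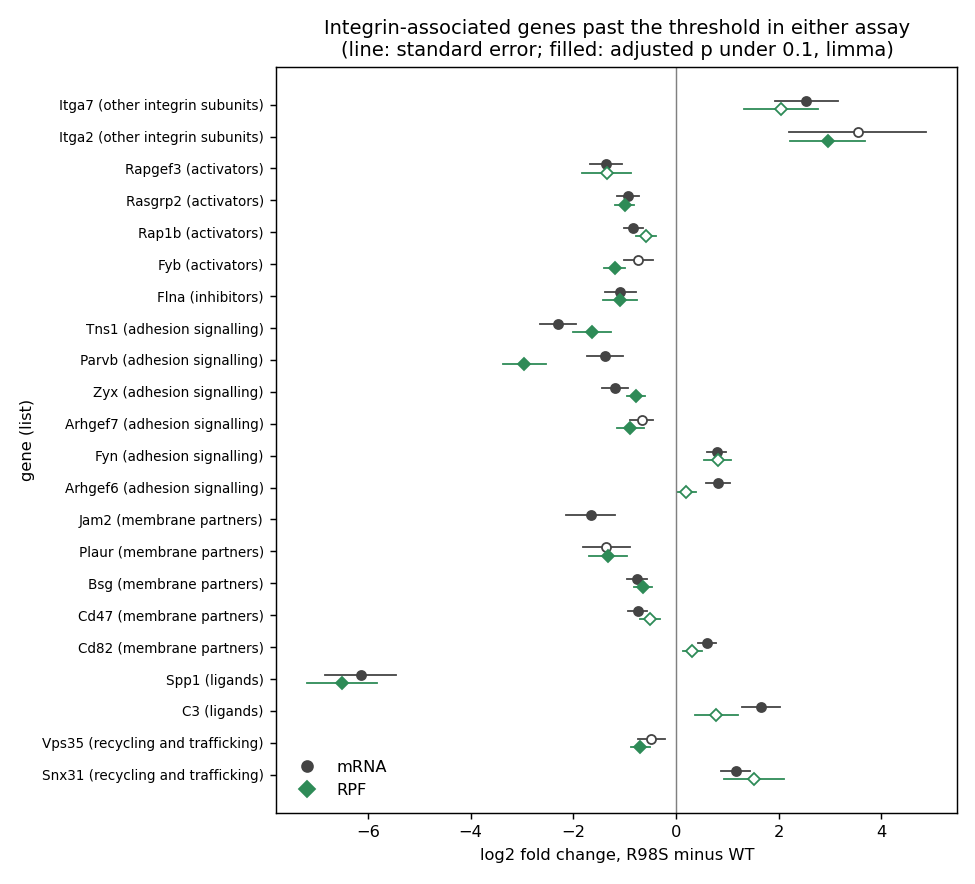
Log2 fold change (R98S minus WT) with standard errors for the 22 integrin-associated genes past the threshold in mRNA (circles) or footprints (diamonds), filled where the adjusted p was under 0.1 in limma. Spp1 lies at -6.15 and -6.50, most of the others lie between -3 and 0, and Itga7, Itga2, Fyn, Arhgef6, Cd82, C3 and Snx31 lie above 0.

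The genes whose mRNA followed Itgb7 most closely were sought among 11343 other tested genes by the root mean square difference of centred log2 values over the 6 libraries. They were Selenbp2, a selenium-binding protein, with 59.5, 44.2 and 67.1 in R98S clones and 115, 204 and 128 in WT clones, at a difference of 0.124. Tuft1 (tuftelin 1) followed at 0.162, and the C-type lectin receptor Clec4e (Mincle) at 0.199, with 1918, 1209 and 1804 against 3488, 4467 and 3443. All 3 had their lowest value in R98S clone 13 and their highest in WT clone 29, as Itgb7 did. They were picked by likeness over these same libraries, so this shared pattern is not a separate observation. Reads of Selenbp2 may be shared with its close copy Selenbp1.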

How the data were processed

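Messenger RNA and ribosome footprints were measured in 6 Ba/F3 clones, 1 library of each kind per clone. For footprints, the authors trimmed adapters (fastq-mcf), removed rRNA and tRNA reads with Bowtie2, aligned the rest to mm10 with TopHat2 2.0.11, kept primary alignments with a mapping quality of at least 10, counted coding sequence without its first 15 and last 5 codons, and merged 3 technical replicates; mRNA was counted over exons. The deposited signal values are counts that the authors divided by DESeq2 size factors, separately per table, and no sample column was left unused. All values were whole multiples of 1 read (100%, tolerance 0.0001), so reads were recovered.

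Changes were tested with limma 3.58.1 (R 4.3.3, trend) on log2(value + 1) for genes with a mean of at least 10, Benjamini-Hochberg adjusted over all tested genes, threshold 0.1, the study's own. For TE, footprints were divided by mRNA per clone on the log2 scale, for genes that reached 10 normalized counts in every library. The study used Babel for TE, which was not run here. The libraries of a clone were paired by the clone number in their labels, and their deviations from the genotype means had a mean correlation of 0.519 (0.218 to 0.681). The lowest were those of WT clone 28 at 0.218 and WT clone 36 at 0.311, and the other clones lay at 0.609 or above. Clones of different genotypes were not paired, and p-values measure the spread between clones. Ratios were compared by exact two-sided permutation tests. DESeq2 1.42.0 and edgeR 4.0.16 on recovered reads, other pseudocounts and filters, TMM factors, library weights, removal of chromosome medians and leaving out each clone were tried as alternatives. The scripts were tested on simulated data.

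Levels per kilobase used the RefSeq coding sequence without the codons left out for footprints, and merged GENCODE exons for mRNA. The 10 members, the 7 lists of integrin-associated genes and the marker lists were chosen with earlier results of these data known. Named were all members, every other subunit with a mean mRNA of at least 10, every listed gene past the threshold (beyond 4 in a list and assay, the 2 largest rises and the 2 largest falls) and the 3 genes most like the member with the largest called fall. Protein sequences and footprint positions within genes were not analysed here. Intervals and p-values cover only what 3 clones per genotype show.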

Additional observations from a re-analysis of the deposited data

How the results depend on the processing

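Itgb7 kept its direction and its call in mRNA and footprints under each alternative tried. The count of members lower in mRNA was 1 and became 2 with DESeq2 on recovered reads, where Itgb1 passed (adjusted p = 0.0215), and 4 with library weights, which added Itgb1, Itgb2 and Itgav and also called 1 member, Itga5, higher. With edgeR, Itgb1 mRNA had an adjusted p of 0.103. The count of members lower in footprints was 2 and became 1 with chromosome medians removed, and it ranged from 1 to 3 with 1 clone left out, being 1 without R98S clone 11, R98S clone 13 or WT clone 36. In mRNA that range was 1 to 2, with 2 without WT clone 28. Over the listed partner genes, DESeq2 called 18 lower in mRNA and 18 lower in footprints in place of 11 and 11. With 1 clone left out, genes higher in mRNA ranged from 0 (without R98S clone 13) to 8, genes lower in mRNA from 2 (without R98S clone 11) to 16, genes higher in footprints from 0 to 2, and genes lower in footprints from 4 (without R98S clone 11 or 13) to 15. Without WT clone 36, these counts were 2, 4, 2 and 5. The level order kept 6 of 10 members at their rank when set by mRNA and 6 when set by WT clones alone. Signs of some uncalled members changed, and the cause was not tested. Itgb3 mRNA turned to -0.40 with library weights and ranged from -0.26 to 0.42 with 1 clone left out, and Itgal TE turned to 0.25 with clone weights and ranged from -0.37 to 0.24. The other ranges with 1 clone left out were -0.19 to 0.55 for Itga4, -0.021 to 0.22 for Itga5, -0.0067 to 0.71 for Itga6 and -0.0019 to 0.50 for Itgb3 in footprints, and -0.17 to 0.055 for Itgb1, -0.38 to 0.062 for Itgb2 and -0.16 to 0.40 for Itgb3 in TE. Without the replicate block, that is with the 2 libraries of a clone not paired, 0 members were called in TE, as with the pairing, and edgeR with the block also called 0. Depth limits Itga6 and Itgam, and with 3 clones per genotype no exact permutation test goes below 0.1.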
